A study of Drosophila melanogaster with 2 samples.

Results

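The regions described here were peaks on the X chromosome of Drosophila melanogaster whose summits, the position of highest signal in a peak, lay more than 500 bp from every annotated transcript start. They were taken from the series-wide thresholded peak list, and 535 of its 887 X chromosome summits met this rule, out of 4590 peaks in all. The rule used position and not signal. The nearest member lay 502 bp from a start and the farthest X summit not kept lay 500 bp from one. A further 25 members lay within 600 bp, and 29 X summits that were not kept lay over 400 bp away. The list came from chromatin immunoprecipitation followed by sequencing (ChIP-seq) with an anti-GFP antibody on whole embryos aged 0 to 24 h of transgenic flies expressing an H2.0-eGFP fusion, eGFP being a green fluorescent protein. There was 1 group of 2 biological replicates, both of strain H2.0-GFP, with no second condition and no other genotype. The labels place the insertion at H2.0 by name only, give no driver for it, and give no sex, so the number of X chromosomes per cell is not known.

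The H2.0 protein belongs to the homeodomain class and marks the visceral mesoderm of the fly embryo. Homeodomain proteins bind short AT-rich sequences, often in enhancers that lie in introns or between genes. The X chromosome of male flies is transcribed at a raised rate by the MSL dosage compensation complex, which spreads from entry sites that hold GA repeats, and the X also carries more simple repeats such as CA runs than the autosomes.

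The sequences of 8 summits are shown as examples. They are printed from the reference (build dm6, plus strand) with 50 bases on both sides of the summit. They hold the 5 members of highest signal, 2 summits of CHES-1-like and 1 of 2 neighbouring summits in Raf. CHES-1-like had the largest share of ranked peaks past the threshold among genes holding 5 or more members. Capitals mark matches on either strand to any of 12 motifs listed below or to AGTTAA, a sequence picked after these windows had been read. Both CHES-1-like windows are among the 4 of its 10 that hold AGTTAA. The summit second in signal value in that gene (424, against 372 for the second one shown) has no AGTTAA and is not printed. The printed windows thus hold AGTTAA more often than the 12.5% of all members.
ph-p, chrX:2137311-2137411: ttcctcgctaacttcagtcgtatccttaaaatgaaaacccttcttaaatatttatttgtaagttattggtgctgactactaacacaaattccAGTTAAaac
CG32772, chrX:4910307-4910407: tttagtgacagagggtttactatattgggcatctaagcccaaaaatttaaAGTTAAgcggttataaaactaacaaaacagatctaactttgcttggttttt
Tlk, chrX:3742165-3742265: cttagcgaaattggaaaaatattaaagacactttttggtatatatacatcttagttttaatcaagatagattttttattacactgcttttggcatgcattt
CG3726, chrX:5918865-5918965: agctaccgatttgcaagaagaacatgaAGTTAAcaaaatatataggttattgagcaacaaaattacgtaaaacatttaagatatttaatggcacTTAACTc
norpA, chrX:4324940-4325040: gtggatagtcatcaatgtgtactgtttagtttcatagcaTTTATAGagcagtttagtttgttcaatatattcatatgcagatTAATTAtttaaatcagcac
CHES-1-like, chrX:7706964-7707064: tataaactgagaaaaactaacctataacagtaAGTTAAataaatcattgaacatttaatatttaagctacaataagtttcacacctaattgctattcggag
CHES-1-like, chrX:7700354-7700454: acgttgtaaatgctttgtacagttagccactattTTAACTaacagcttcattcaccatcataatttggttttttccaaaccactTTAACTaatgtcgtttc
Raf, chrX:2300656-2300756: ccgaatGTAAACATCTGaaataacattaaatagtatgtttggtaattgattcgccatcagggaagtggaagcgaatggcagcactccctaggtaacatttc

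The windows were rich in A and T. GC content was 31.7% in the windows of ph-p and CG32772, 25.7% in that of Tlk, 28.7% in those of CG3726 and norpA and 39.6% in that of Raf. The median over all 535 members was 31.7%, against 42.6% and 40.6% in windows of the same length centred 400 bp to the left and right, and 42.6% over all X sequence more than 500 bp from starts. Autosomal summits chosen by the same rule on 2L, 2R, 3L and 3R had a median of 32.7%. On a finer scale, mean GC content on X was 33.2% at the summit, 44.5% and 43.9% at 200 bp on its left and right, and 40.2% over windows 600 to 1000 bp away. The member summits thus sat in a narrow low-GC stretch between shoulders of higher GC, and the autosomal summits showed the same shape with 35.3% at the summit and 44.2% and 44.1% at 200 bp.

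The motifs searched, on both strands, were TATCGATA (the DNA replication-related element), TAATTA (a homeodomain core), TTTATNG (caudal and Abd-B class), GATAAG (zinc finger factors such as Serpent), CANCTG (E-box), CAGGTAG (Zelda), TGTTTAC (forkhead), GAGAG (GAGA factor), GAGAGAGA (a GA repeat), CACACACA (a CA repeat), TAGCTA and the Mef2 motif. GAGAG lies within GAGAGAGA, so those 2 counts overlap. TAATTA was in 8.22% of member windows (44 of 535) and in 35 of 535 windows on each side, with 6.16% of X windows tiled over sequence away from starts. The Mef2 motif, named for a muscle regulator, was in 5.23% of member windows, against 2.43% and 3.18% on the left and right and 2.93% of X windows. TTTATNG was in 12.9%, against 9.53% and 11.8% at the sides and 9.04% of X windows. TAGCTA was in 3.55%, against 2.43% and 1.12% at the sides and 1.69% of X windows. CANCTG was in 12.5% of member windows (interval 9.84 to 15.6%), below the 18.1% on the left and the 17.7% of X windows, while the interval covers the 13.8% on the right. The autosomal summits had similar shares, with 9.57% for TAATTA, 5.89% for the Mef2 motif, 12.4% for TTTATNG and 2.21% for TAGCTA. For TAATTA the exact binomial interval of the members, 6.04 to 10.9%, covers the shares at both sides, in X windows and at autosomal summits. For the Mef2 motif the interval, 3.51 to 7.48%, lies above the shares at both sides and in X windows and covers the autosomal one. With members split by signal into 4 equal groups, highest first, its shares were 5.22%, 9.02%, 3.73% and 2.99%. Both sides together had 2.24%, 2.63%, 2.61% and 3.73%, so the lowest group had no excess. Summit windows also had lower GC content than the sides, and its part in these shares was not tested. All such intervals cover counting error only.

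CA repeats were more frequent on X than on the autosomes beside the summits, as they were in tiled sequence. CACACACA was in 1.87% of member windows at the summit (10 of 535) and in 1.37% of autosomal ones. At 400 bp to the left and right it was in 7.29% and 6.36% of X windows, with intervals of 5.23 to 9.83% and 4.44 to 8.77%, against 4.21% and 3.15% beside autosomal summits. Averaged over windows from 200 to 500 bp it was 5.98% on X and 3.96% on the autosomes, and at 600 to 1000 bp it was 4.04% and 2.99%. The tiled background was 3.04% on X and 1.93% on the autosomes, and the shares from 200 to 500 bp were above these on both. Whether the ratio of X to autosomes differs between summits, their sides and tiled sequence was not tested. GAGAGAGA was in 0.374% of member windows at the summit (2 of 535), in 2.24% and 2.43% at 400 bp, and in 0.738% of tiled X windows, and the interval at the summit, 0.0453 to 1.34%, covers the tiled share but not those at 400 bp. The autosomal shares were 0.421% at the summit, 1.42% and 1.47% at 400 bp and 0.481% in tiled sequence, so the order was the same there. The low GC content of the summit windows moves with these shares, and its part in them was not tested.

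**Figure D1:**
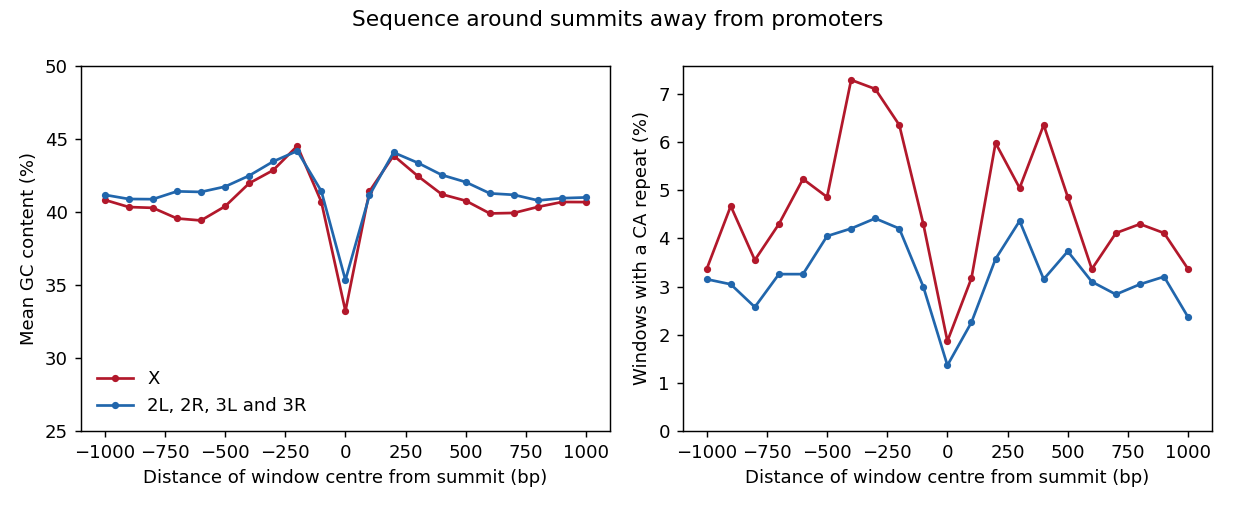
Mean GC content (left) and share of 101 bp windows with CACACACA or its reverse complement (right) against distance from the summit, for the 535 X summits and the 1902 autosomal summits more than 500 bp from starts. GC content falls to 33.2% at the X summits, and the CA repeat reaches 7.29% of X windows 400 bp to the left.

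AGTTAA was in the windows of 5 of the 15 members of highest signal (ph-p, CG32772, CG3726, CHES-1-like and prage), and in 67 of all 535 (12.5%). It was in 6.17% and 5.79% of the windows at the sides and in 5.89% of X windows. With members split by signal into 4 equal groups, it was in 24 of 134 members of the highest group, 17 of 133 of the next, and 13 of 134 of each of the lower groups. The autosomal summits held it in 9.04% of all windows, with 8.61% in their highest group, so the order by signal on X was not the order on the autosomes. The sequence was chosen after a count of all 512, 2080 and 8192 words of 5, 6 and 7 letters in these same windows, and these shares describe the list and support nothing.

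The members of highest signal were intronic. The deposited signal value ranks peaks by strength, its scale is not given in the sources used here, and it is compared only within 1 list. ph-p, a Polycomb group gene, held the highest member (chrX, summit at 2137361 in its first intron). It lay 506 bp from a start, just past the limit of 500 bp. Its signal value was 1495 in the series-wide list, 776 in replicate 1 and 718 in replicate 2. CG32772 followed with 1289, 651 and 619.9, and Tlk, which encodes Tousled-like kinase, with 1144, 619.6 and 529. All 3 stood above every other member in all 3 lists.

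CG3726 had a signal value of 854 in the series-wide list, with 427 in each replicate. norpA, the phospholipase C of phototransduction, had 848, 418 and 437. Both were next in order in the series-wide list, and the replicates differed in which of them was higher.

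CHES-1-like, a forkhead transcription factor gene, had 685 in the series-wide list, 376 in replicate 1 and 324 in replicate 2. NFAT, named for a transcription factor of the Rel-like class, had 657, 374 and 292, and LPCAT, a lysophospholipid acyltransferase gene, had 649.7, 307 and 346. Raf, the kinase that relays Ras signals to MEK, held 2 of the 15, with 620.5, 278 and 342 at one summit and 614, 309.9 and 310.1 at the other. Others of the 15 were an intergenic summit at 494000 nearest to CG17896 (541, 276 and 259), prage (533, 257 and 268), Zw, which encodes glucose-6-phosphate dehydrogenase (500.6, 244 and 243), and Hr4, a nuclear receptor gene (479.97, 199.6 and 285).

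Of these 15, 14 were intronic and 11 lay in a first intron, 12 lay in the 40% of X nearest the telomere, and all 15 were in both replicate lists. Among all 535 members, 436 were intronic, 264 lay in a first intron, 286 lay in that part of X and 266 were in both lists. Their median distance from a start was 1098 bp, and 7 lay within 1000 bp. The SD of the log2 ratio between replicates was 0.22 over the 15 and 0.59 over the 526 members with a ranked peak in both replicates. By the fixed motifs, 10 of the 15 windows held no match, and 5 held no match to AGTTAA either.

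**Figure D2:**
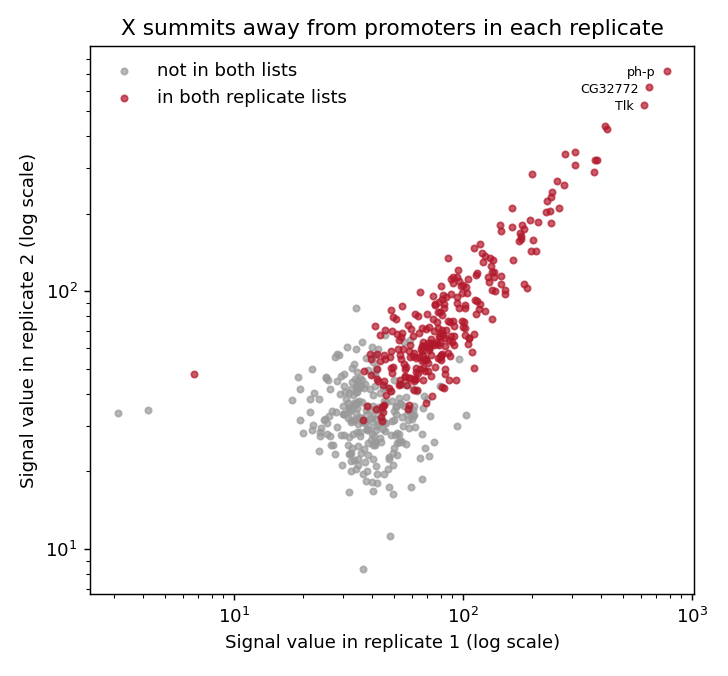
Signal value of each member in replicate 2 against replicate 1, both on log scales, for members with a ranked peak of both replicates within 200 bp. Members in both thresholded replicate lists are red, and the 3 highest are named. The 3 named members are the highest in both replicates, and the scatter widens at low signal.

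Members were more often in both replicate lists where their series-wide signal was higher. That signal comes from the same 2 replicates as the replicate lists, so part of this order is built in. A summit of both replicate lists lay within 200 bp of 266 members (49.7%, exact binomial interval 45.4 to 54.0%), against a background of 45.1% over all distal summits of the 5 large arms, and against 42.6 to 45.1% on the autosomal arms. A summit lay in the list of replicate 1 alone for 102 members, in that of replicate 2 alone for 61, and in neither for 106. In the highest of 4 equal signal groups, from 144 to 1495, 133 of 134 members were in both lists. In the next groups 105 of 133, 26 of 134 and 2 of 134 were. Autosomal summits in the same signal ranges were in both lists in 99.03%, 75.8%, 20.4% and 1.73% of cases, so members and autosomal summits of like signal were close in this share. Across the 526 members with both values Spearman's rho between replicates was 0.722, and it was 0.658 to 0.692 on the autosomal arms. The points share the joint selection that made the list.

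A larger share of X summits lay away from promoters than on any autosomal arm. The share was 60.3% on X (exact binomial interval 57.0 to 63.6%) and 51.8% on the autosomes, with 48.2% on 2R, 51.9% on 2L, 52.1% on 3R and 54.5% on 3L. In the list of replicate 1 the share was 61.6% on X and 50.4% on the autosomes, and in replicate 2 it was 58.4% and 46.6%. X was the highest of the 5 arms in all 4 lists examined. With 22.7 members per Mb, X also had the highest density, against 15.9 on 2R, 17.0 on 3R, 18.3 on 2L and 18.7 on 3L. The ratio of X to the autosomes was 1.30, and 1.29 per Mb of sequence more than 500 bp from starts. It was 1.33 in the conservative list, 1.43 in replicate 1 and 1.38 in replicate 2. Promoter summits went the other way, with 14.95 per Mb on X and 16.2 on the autosomes, a ratio of 0.920. X therefore stood above every autosomal arm in summits away from promoters only, and below all 4 in promoter summits in the series-wide list. Peaks are not replicates, and with 2 replicates no exact test over samples can reach a p of 0.05, so none was made.

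The signal of members was slightly above that of autosomal summits, by less than the quartile range of any arm. The median signal value was 94.6 on X, with quartiles of 71.1 and 143, and 87.3 on the autosomes, with 84.8 to 90.6 on the single arms. In replicate 1 the medians were 66.5 on X and 62.6 on the autosomes (60.8 to 65.0 on the arms), and in replicate 2 they were 61.0 and 57.5 (56.2 to 59.5). X had the highest median of the 5 arms in all 4 lists, with ratios of 1.08 in the series-wide list, 1.07 in the conservative list and 1.06 in each replicate. Within introns the ratio was 1.06, and between genes 1.04 with 0.853 in replicate 2. Promoter summits had a ratio of 0.945 in the series-wide list and 1.07 in replicate 1. X took a larger share of the strongest summits away from promoters than of all of them, with 4 of the 10 highest, 9 of 25, 29 of 100, 54 of 200 and 22.0% of the 2437. X makes up 17.8% of the length of the 5 arms.

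**Figure D3:**
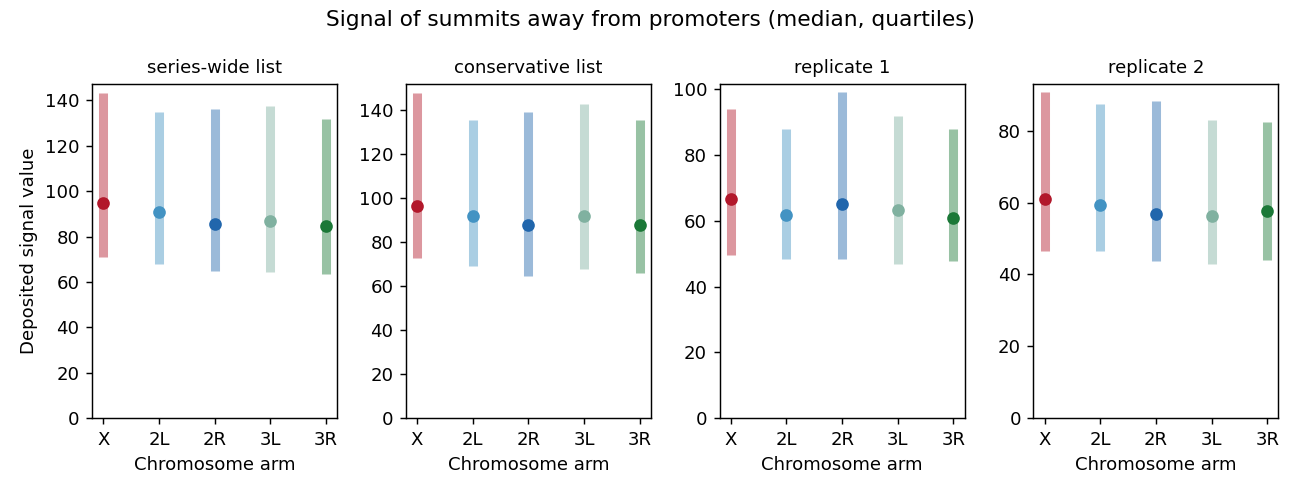
Median (points) and quartiles (bars) of the deposited signal value of summits more than 500 bp from starts, by chromosome arm, in the series-wide list, the conservative list and each replicate's list. The X median is the highest in each panel and its quartiles overlap those of every autosomal arm.

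The ranked list, which holds peaks before the threshold, had a lower median and 90th percentile of signal on X than on the autosomes and a higher 99th percentile. Of 20445 ranked X peaks more than 500 bp from starts, 535 passed (2.62%), against a background of 2.2% over the 5 arms and 1.91 to 2.35% on the autosomal arms. The median signal of the ranked X peaks was 16.7, below the 18.8 to 19.4 on the autosomal arms. Their 90th percentile was also lower, at 31.8 against 35.5 to 36.8. Their 99th percentile was 115.2, above the 86.5 to 98.2 on those arms. The same order held in both replicates, where the median was 11.4 on X and 12.5 on the autosomes in replicate 1 and 11.3 and 12.4 in replicate 2. The 90th percentiles were 20.8 and 22.5 in replicate 1 and 19.95 and 21.8 in replicate 2. The 99th percentiles were 79.8 and 60.4 in replicate 1 and 67.9 and 55.0 in replicate 2.

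Members lay mostly in introns. By class, 436 of the 535 were intronic (81.5%, interval 77.9 to 84.7%), while introns made up 49.8% of X sequence more than 500 bp from starts. Intergenic sequence held 73 members (13.6%) and made up 25.1% of that sequence. Coding exons held 5, 3′ UTRs 10, 5′ UTRs 3 and other exons 8. On the autosomes 62.8% of summits were intronic and 29.97% intergenic, with 44.9% and 32.2% of the sequence. X thus had 44.1 intronic members per Mb of intron sequence, above the 26.8 to 31.4 on the autosomal arms, and 14.6 per Mb of intergenic sequence, against 14.5 on 2R and 18.6 to 23.2 on the other arms. First introns held 264 of the 436 intronic members (60.6%), against 44.5% of intron sequence, and 65.3 to 69.3% on the autosomal arms. The median distance of a member from a start was 2494 bp, with quartiles of 1173 and 5814 bp. The farthest lay 42278 bp away, in mamo, with a signal value of 197 in the series-wide list and 98.9 and 98.8 in the replicates, and 156 members lay over 5 kb away.

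Members were uneven along X, to a degree within the range of the autosomal arms. Counts in 236 bins of 100 kb had a variance of 2.47 times their mean, against 2.21 to 3.57 on the arms, and 64 bins held no member. The densest bins held 11 members each, at 3000001 to 3100000, 3700001 to 3800000 and 5900001 to 6000000. By megabase, the counts were highest at 46 members from 3000001 to 4000000 and again from 7000001 to 8000000, where 13 and 18 promoter summits lay. The 40% of X nearest the telomere held 286 members (53.5%), against 46.6 to 57.1% on the arms and 40.3% of X genes. The last 10% before the centromere held 4 members, and the largest gap, 894395 bp, ended at a summit at 22488473.

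**Figure D4:**
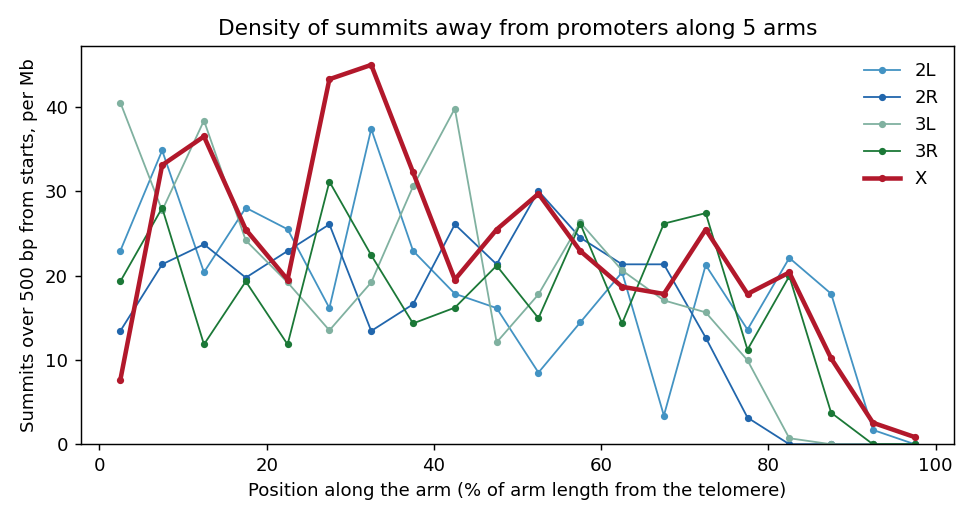
Summits more than 500 bp from transcript starts per Mb in 20 equal parts of each arm, against position from the telomere in percent of arm length. X (red, thick) reaches 43.3 and 45.03 per Mb in the sixth and seventh parts and falls to 0.850 in the last.

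Chained at gaps of at most 10 kb, 84 members (15.7%) lay in 13 runs of 5 or more, against 4.95 to 21.3% on the autosomal arms. The share was 8.71% without replicate 2 and 5.62% for members above the median signal of the members. The largest run held 11 members over 19.3 kb, from 7691651 to 7710993, in CHES-1-like and just beyond it, and 9 of them were in both replicate lists. The next run held 9 members over 12.8 kb in Grip, with 2 in both lists. Further runs held 8 and 7 members in CG1677, 7 in Hr4, 7 in Raf, and 5 each in kirre, Tlk, CG14434, sdt, CG42258, CG43658 and around the long noncoding RNA gene lncRNA:Vinr. Some runs hold peaks that share a flank. In all, 14 members had another within 300 bp, and of the 9 members with a signal value below 30 in the series-wide list, 8 had another X summit within 300 bp.

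Of 1932 X-linked protein-coding genes with a ranked peak in their span, 221 held a member (11.4%), against 7.19 to 8.53% of such genes on the autosomal arms. The share on X was above that on each of the 4 arms. A further 264 coding genes had no ranked peak and were not analysed here. Genes that held a member had a median span of 19.9 kb and those that held none 2.45 kb. Of the 69 coding genes over 50 kb, 45 held 1 or more. Span moves with the count of members, and its part in the difference between arms was not tested. The median span of all such genes was 2.82 kb on X and 2.30 to 2.39 kb on the arms. One member was held by 135 coding genes, while 17 coding genes and 2 noncoding ones held 5 or more, with 144 members (26.9%) between them. In place of 19 genes there were 10 without replicate 1 and 11 without replicate 2.

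kirre, an immunoglobulin family receptor of muscle founder cells that acts in myoblast fusion, held the most, 18 members over its 394 kb. Their signal values ran from 55.9 to 255 with a median of 111 in the series-wide list, from 19.1 to 137 with a median of 61.3 in replicate 1, and from 20.02 to 131 with a median of 56.1 in replicate 2. All 18 were intronic, 1 was in a first intron, and 10 were in both replicate lists. The highest was 1 of 2 that also lie in CG32795, a gene within the span of kirre. Of the 409 ranked peaks away from starts in its span, 4.40% passed the threshold. Its density was 0.457 members per 10 kb, against 0.227 over the whole of X, exons and intergenic sequence included. Intron sequence of X more than 500 bp from starts held 44.1 members per Mb, close to the density of kirre. The share past the threshold on X was 2.62%.

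CHES-1-like had 10 members in 27.0 kb, or 3.70 per 10 kb, and 10 of its 20 ranked peaks away from starts passed the threshold. Signal values ran from 90.5 to 685 with a median of 128 in the series-wide list, from 53.5 to 376 in replicate 1 and from 33.1 to 324 in replicate 2. All 10 lay in a first intron, 9 were in both replicate lists, and AGTTAA was in 4 of the 10 windows. Grip, a PDZ domain gene known for muscle guidance in the embryo, had the higher density at 4.41 per 10 kb with 9 members in 20.4 kb. Its signal values were lower, from 4.90 to 122 with a median of 71.3 in the series-wide list. The 7 members with a ranked peak in the replicates ran from 30.2 to 66.5 in replicate 1 and from 18.7 to 62.1 in replicate 2. The members of CHES-1-like therefore stood mostly in both replicate lists and those of Grip mostly did not, with 2 of 9.

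lncRNA:CR44357 held 17 members and CG1677 held 15, and all 15 lay in both genes, which overlap. The highest of them, with 370 in the series-wide list, also lies in a first intron of Dok. Hr4 held 11, with signal values from 20.4 to 479.97 in the series-wide list, from 34.3 to 199.6 in replicate 1 and from 8.32 to 285 in replicate 2. Tlk held 10, 9 of them in a first intron, with a median of 124 in the series-wide list, 73.8 in replicate 1 and 62.5 in replicate 2. lncRNA:CR44999 also held 10, and CG12535, which it overlaps, held 6. Raf held 9 members with a median of 165 in the series-wide list, with 106 in replicate 1 and 65.7 in replicate 2, and CG14434 had the highest median of these genes, 176, over 5. CG43658 held 8.

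Ten-a, a teneurin of synaptic partner matching, held 6 members over 292 kb with a median signal of 69.1 in the series-wide list. mew, an integrin alpha subunit gene, held 6 in 44.1 kb, all in a first intron, with a median of 123. The remaining genes held 5 each: CG42258, NFAT, RhoGAP19D, ct, which encodes the homeodomain factor Cut, and sdt, an apical polarity gene. In sdt 1 of the 5 was in both replicate lists, and in ct 3 of 5 were.

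**Figure D5:**
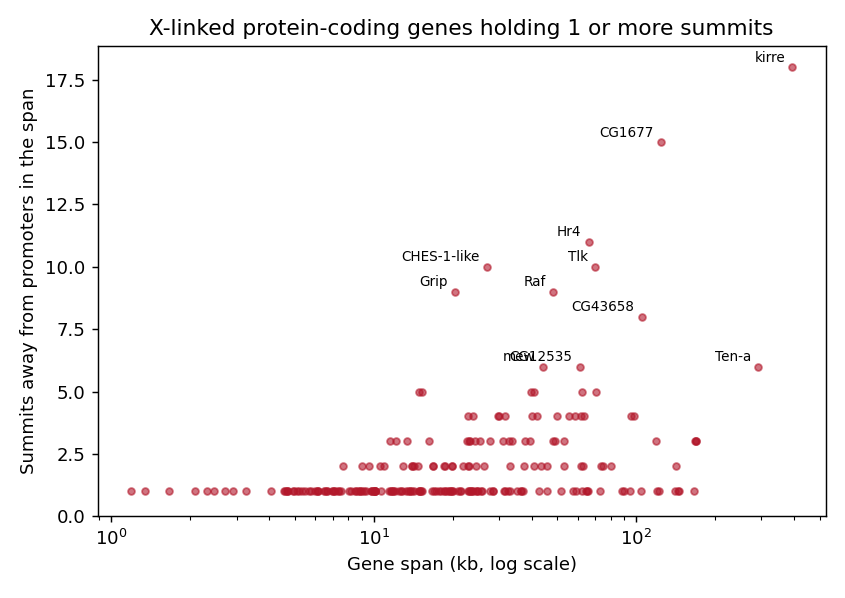
Number of members in each X-linked protein-coding gene that held 1 or more, against gene span in kb on a log scale. Genes with 6 or more are named. kirre has the most (18 in 394 kb), and Grip and CHES-1-like hold 9 and 10 within spans of 20.4 and 27.0 kb.

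Among X-linked genes of dosage compensation and sex determination, 1 of 8 analysed held a member, against the 11.4% of coding genes given above. It was Sxl, the switch gene of sex determination, with a first-intron member of signal value 193 in the series-wide list, 90.5 in replicate 1 and 114 in replicate 2. The noncoding RNA genes of the MSL complex, lncRNA:roX1 and lncRNA:roX2, are among the 8, unlike the coding genes of that share, and held none. lncRNA:roX1 had only 2 ranked peaks away from starts. lncRNA:roX2 had 0, so it could not hold a member, and it held 1 promoter summit. At mof, the acetyltransferase gene of that complex, no summit of either kind was listed, and it had 2 ranked peaks away from starts.

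Of 11 muscle and myoblast genes, 4 held a member (36.4%), and the interval of 10.9 to 69.2% covers the 11.4% of all X-linked coding genes. They held 21 members between them, 18 of these in kirre. The others held 1 each, with series-wide signal values of 98.6 in if, an integrin gene, 77.8 in flw, a phosphatase gene, and 61.4 in sd, the TEAD factor gene. rst, the paralogue of kirre, lies within the span of kirre. It held none among 34 ranked peaks away from starts, which also count for kirre.

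Of 27 patterning and signalling genes analysed, 10 held 22 members (37.0%, interval 19.4 to 57.6%), against 11.4% of all X-linked coding genes. Their median span was 12.2 kb, against 2.82 kb for all of those. After ph-p, the highest series-wide values in this list were 270.4 in N, the Notch receptor gene, with 147 in replicate 1 and 115.01 in replicate 2, 223 in sog, a BMP antagonist gene, with 94.2 and 114, 189 in ct, with 102 and 88.1, and 130.4 in bi, a T-box gene, with 68.8 and 54.7. Of 20 neuronal genes analysed, 12 held 25 members (60.0%, interval 36.1 to 80.9%), against 11.4% of all X-linked coding genes and 45 of the 69 coding genes over 50 kb. After norpA, the highest was 218 in elav, an RNA-binding protein gene of neurons, with 94.8 and 121, and this summit also lies in arg, which overlaps elav. Next were 174 in dnc, a cAMP phosphodiesterase gene, with 103 and 71.8, and 140.1 in Ten-a, with 66.3 and 72.3, then 124 in fne, another RNA-binding protein gene, with 83.6 and 61.1. The neuronal genes had a median span of 59.5 kb and the dosage compensation genes one of 3.48 kb. Sh, a potassium channel gene of 139 kb, held none among 144 ranked peaks.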

How the data were processed

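The ranked and thresholded peak lists were used, for both replicates together and for each alone. The deposited lists are narrowPeak files, per the labels' file listings. The signal value was deposited by the authors as that format's field of the name, its scale is not stated, and it was compared only within a list. The deposited score is a scaled irreproducible discovery rate (IDR), and every thresholded peak scored 830 or more. For each peak the authors list a q-value as −log10. Coordinates are dm6, per the labels. Aligner and peak caller: not given in the sources used here. Library depth is likewise unknown. The control library was not used here.

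Summits were placed on the Ensembl annotation BDGP6.54, all transcript starts included, with Python 3.11.15, numpy 2.4.6, pandas 2.3.3 and scipy 1.17.1. Reference arm lengths covered all peaks. A summit in several classes was counted first as UTR, then exon, then intron. A gene held summits inside its span, and overlapping genes share them. Replicate values are those of the nearest ranked peak within 200 bp. Shares have exact (Clopper-Pearson) intervals at 95%, for counting error only. No test was made, since 2 replicates allow no exact p of 0.05. The counting steps were tested on simulated data.

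Genes were named by rule: those of the 15 highest members, those holding 5 or more, and members of 4 lists. Others (mamo, rst, mof, lncRNA:roX1, lncRNA:roX2, Sh, lncRNA:Vinr, arg, CG32795, Dok) were named after their values were seen. One of the 15 is not reported here by name. The members and lists were chosen with earlier results of these data known. Alternatives were other lists, distances, starts, thresholds, bins and windows.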

Additional observations from a re-analysis of the deposited data

Results flagged for a closer look

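In the ranked series-wide list, 2 X peaks more than 500 bp from starts reached the score of the threshold and yet were not in the thresholded list. The higher had a signal value of 114.956, above the member median of 94.6. They were noticed because the comparisons above do not use them. The autosomal arms held 19 such peaks on 2L, 6 on 2R, 1 on 3L and 35 on 3R, so X had few. The highest signal values of these autosomal peaks were 1716 on 2L, 146 on 2R, 114 on 3L and 1395 on 3R. The X share of the strongest summits given above leaves all such peaks out. Counting them could lower the X share of the 10 highest but not raise it.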

How the results depend on the processing

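Of 111 alternatives, 45 left a result the same and 66 moved it. The same meant a count within 1.5 times its value, or another value within 1 SD between replicates or the counting interval. That SD rests on 2 values and can be very small. It was 0.000368 for the median signal ratio and 0.104 percentage points for the intronic share. All alternatives of these results therefore counted as moved, also where the values were close. Most results were counts or shares, which have no direction to reverse. The ratios of X to autosomes for density and for median signal could reverse, and stayed above 1 in all of their alternatives. Intergenic summits in replicate 2 alone, given above, were not among these and had a median signal ratio below 1.

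The number of members was 347 to 379 with 1 replicate left out, 658 with starts within 200 bp left out, 425 with 1000 bp and 383 at a q-value below 0.05. It was 267 in the stronger part, cut at the median signal of the members, 94.6, and that cut fixed the count. The share away from promoters was 74.2% with starts within 200 bp left out, 47.9% with 1000 bp and 63.2% with starts of protein-coding genes. The density ratio was 1.38 to 1.43 with 1 replicate left out, 1.46 at a q-value below 0.05 and 1.47 in the stronger part. The cut of the stronger part lies above the autosomal median of 87.3. It kept a smaller share of autosomal summits than of members, which raised that ratio. The median signal ratio was 1.060 to 1.061 with 1 replicate left out, 1.07 in the conservative list, 1.09 at 200 bp, 1.08 at 1000 bp, 1.08 with starts of protein-coding genes, 1.07 without transposable elements, 1.04 at a q-value below 0.05, 1.09 with summits within 300 bp counted once, 1.06 in introns and 1.04 between genes. In the stronger part it was 1.01, so medians there barely differed.

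The intronic share was 82.8 to 83.0% with 1 replicate left out, 81.1% in the conservative list, 75.5% at 200 bp, 83.3% at 1000 bp, 79.3% with starts of protein-coding genes, 81.1% without transposable elements, 82.2% at a q-value below 0.05, 84.6% in the stronger part, 81.2% with close summits counted once and 83.4% with introns placed before exons.

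The share in runs was 8.71 to 13.5% with 1 replicate left out (8.71% without replicate 2), 19.1% at 200 bp, 10.6% at 1000 bp, 5.62% in the stronger part, 11.4% chained at 5 kb and 34.4% at 20 kb. The variance over mean was 2.09 to 2.19 with 1 replicate left out, 2.31 in the conservative list, 2.58 at 200 bp, 2.34 at 1000 bp, 2.57 with starts of protein-coding genes, 2.19 at a q-value below 0.05, 2.00 in the stronger part, 2.39 with close summits counted once, 2.16 in bins of 50 kb and 3.25 in bins of 250 kb. Genes holding 5 or more numbered 10 without replicate 1, 11 without replicate 2, 11 at a q-value below 0.05 and 9 in the stronger part, where fewer summits were counted, 58 held 3 or more, and 7 held 10 or more.

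With 100 bp on both sides of the summit, windows had a median GC content of 35.3%, against 41.8% and 40.8% on the left and right. Shares rise with window length, so each is given with those of the left and right windows. TAATTA was in 14.95% (11.4% and 12.1%), TTTATNG in 22.1% (17.0% and 20.7%), GATAAG in 8.41% (8.41% and 10.1%) and CANCTG in 26.9% (32.7% and 26.9%), so the CANCTG share equalled that on the right. TGTTTAC was in 4.49% (3.74% and 3.55%), GAGAG in 21.3% (27.9% and 28.6%), CACACACA in 4.67% (11.96% and 9.16%), TAGCTA in 7.10% (4.49% and 3.18%), AGTTAA in 18.9% (11.96% and 10.8%) and the Mef2 motif in 10.8% (5.61% and 6.17%). Counting close summits once and the AGTTAA windows were chosen after seeing the data. With 2 replicates and no reads, depth and its precision are unknown, and members of low signal rest mostly on the joint list.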

Other observations

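A further 25 peaks of the series-wide list lay on 21 unplaced X scaffolds, with a signal value of up to 492, and were not placed on X here. Chromosome 4 held 5 peaks and Y held 0.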
